A study of Mus musculus with 19 samples.

Results

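The 10 genes described here, Gzma, Gzmb, Ncr1, Nkg7, Prf1, Klrb1c, Klrd1, Klre1, Eomes and Ccl5, are genes of natural killer (NK) cells and other cytotoxic lymphocytes. They were found by gene name in the joined count table of the series, in which each name matched, and are 10 of the 35160 genes with at least 1 count. The list was drawn up with the levels of these genes in these libraries known, so their levels and fold changes are given as a description. RNA was sequenced from abdominal aortas of male Apoe-/- mice, which lack apolipoprotein E and are hypercholesterolemic, on the C57Bl/6J background. All mice, controls included, were infused with angiotensin II (AngII) from an osmotic pump, a model of abdominal aortic aneurysm. The D-3 IR mice (n = 7) received 1 Gy of X-rays to the whole body 3 days before AngII, the D+1 IR mice (n = 7) received it 1 day after AngII, and the control mice (n = 5) received the anesthesia alone, so no group was free of AngII. Aortas for tissue analyses were taken at day 7, and the day of the sequenced aortas is not named in the sources used here. Each library came from 1 mouse, is named here by its group and its number in the labels, and holds RNA of the vessel wall with whatever cells and tissue adhered to it.

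NK cells and cytotoxic T cells kill target cells by releasing granules in which perforin opens the membrane of the target and granzymes enter and cleave its proteins. Activating receptors such as NKp46, and inhibitory receptors such as those built on CD94, which read class I MHC molecules, decide between release and restraint. The T-box factors Eomes and T-bet set up this program during maturation, and the chemokine Ccl5 draws further leukocytes that carry its receptors. In an artery wall such cells are rare, and in AngII-infused mice leukocytes are known to enter it largely from the adventitial side.

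The stretches before the transcription starts of the granule genes Gzma, Gzmb, Nkg7 and Prf1 and of the receptor gene Ncr1 are shown because these are the members closest to the killing function and because binding motifs of lymphocyte factors can be read in them. RefSeq, on GRCm38.p6, gave the window of 250 bases before and 50 bases after the start for 8 of the 10 genes. Klrd1 and Ccl5 had no entry. The windows lie at chr13:113100932-113101231 for Gzma (minus strand), chr14:56262285-56262584 for Gzmb (minus strand), chr7:43436888-43437187 for Nkg7 (plus strand), chr10:61297586-61297885 for Prf1 (plus strand) and chr7:4337465-4337764 for Ncr1 (plus strand, the first of 2 starts listed). They are printed 5′ to 3′ on the strand of the gene, with matches in capitals to any of 5 motifs, read on both strands: TGTGGT (RUNX factors), AGGTGT (T-box factors), AGGAAG (ETS factors), TGANTCA (AP-1) and TTCNNNGAA (STAT factors).
Gzma: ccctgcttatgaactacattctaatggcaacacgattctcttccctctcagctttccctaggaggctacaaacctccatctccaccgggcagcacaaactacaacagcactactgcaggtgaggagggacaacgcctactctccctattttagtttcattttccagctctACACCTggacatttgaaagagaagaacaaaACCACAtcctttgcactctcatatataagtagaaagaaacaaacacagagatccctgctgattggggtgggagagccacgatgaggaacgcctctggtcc
Gzmb: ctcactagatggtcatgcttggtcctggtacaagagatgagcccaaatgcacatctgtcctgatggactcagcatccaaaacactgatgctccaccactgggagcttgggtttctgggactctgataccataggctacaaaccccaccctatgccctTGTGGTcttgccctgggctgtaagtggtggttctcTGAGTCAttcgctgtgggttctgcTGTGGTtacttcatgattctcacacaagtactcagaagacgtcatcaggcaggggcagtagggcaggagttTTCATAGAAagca
Nkg7: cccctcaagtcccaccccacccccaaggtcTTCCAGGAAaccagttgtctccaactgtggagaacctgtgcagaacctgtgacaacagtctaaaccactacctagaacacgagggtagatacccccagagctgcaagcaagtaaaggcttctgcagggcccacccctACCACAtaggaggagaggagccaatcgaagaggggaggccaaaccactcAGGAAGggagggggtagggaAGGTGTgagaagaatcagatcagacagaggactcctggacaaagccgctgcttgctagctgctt
Prf1: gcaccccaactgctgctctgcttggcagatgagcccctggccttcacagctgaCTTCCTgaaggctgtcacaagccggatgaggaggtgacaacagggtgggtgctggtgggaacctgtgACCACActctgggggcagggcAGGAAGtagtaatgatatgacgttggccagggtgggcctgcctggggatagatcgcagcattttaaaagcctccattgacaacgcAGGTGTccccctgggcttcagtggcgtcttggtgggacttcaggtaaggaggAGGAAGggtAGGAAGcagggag
Ncr1: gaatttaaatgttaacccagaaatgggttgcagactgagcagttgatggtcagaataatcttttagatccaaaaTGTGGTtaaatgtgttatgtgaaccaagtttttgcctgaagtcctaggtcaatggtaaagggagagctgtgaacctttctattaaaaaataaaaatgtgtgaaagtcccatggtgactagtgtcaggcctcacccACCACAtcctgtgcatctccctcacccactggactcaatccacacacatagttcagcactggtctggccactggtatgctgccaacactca
The RUNX motif was present in 7 of the 8 windows, all but that of Eomes, and in 16.8% of the 32851 promoters of the same length. The T-box motif was in 3 of the 8, those of Gzma, Nkg7 and Prf1, and in 13.7% of all promoters. The ETS motif was in 3 of the 8 (Nkg7, Prf1 and Klrb1c) and in 35.4% of all, the STAT motif in 2 (Gzmb and Nkg7) and in 8.30% of all, and the AP-1 motif in 1 (Gzmb) and in 7.81% of all. The motifs were picked with the genes in view, and a match describes letters, not a bound site. The windows of Gzma, Nkg7 and Prf1 had both a T-box and a RUNX match.

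The libraries held 25839001 to 97083681 counts in genes (median 39641963), so that 1 count was worth 0.0108 to 0.0382 CPM, the unit of scaled counts used below (CPM, with TMM factors). The 10 genes together took 70 to 2890 counts per library. D-3 IR 10, D+1 IR 3 and D+1 IR 20 stood apart from the rest before any comparison, with summed levels of 72.8, 38.8 and 25.5 CPM over the 10 genes, against 1.89 to 9.98 CPM in the other 16 libraries and 2.16 to 4.38 CPM in the 5 control libraries. D-3 IR 10 and D+1 IR 3 were also the 2 libraries with the highest sums of T cell genes (415.7 and 238.1 CPM, against 7.01 to 45.4 CPM in the other 17) and of B cell genes (1165 and 814 CPM, against 12.2 to 127 CPM). Results are therefore given with and without these libraries. Smooth muscle genes were abundant in all libraries, with the lowest sum (1646 CPM) in D+1 IR 3. In bulk RNA, fewer cells of a type and less RNA per cell cannot be told apart.

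**Figure D1:**
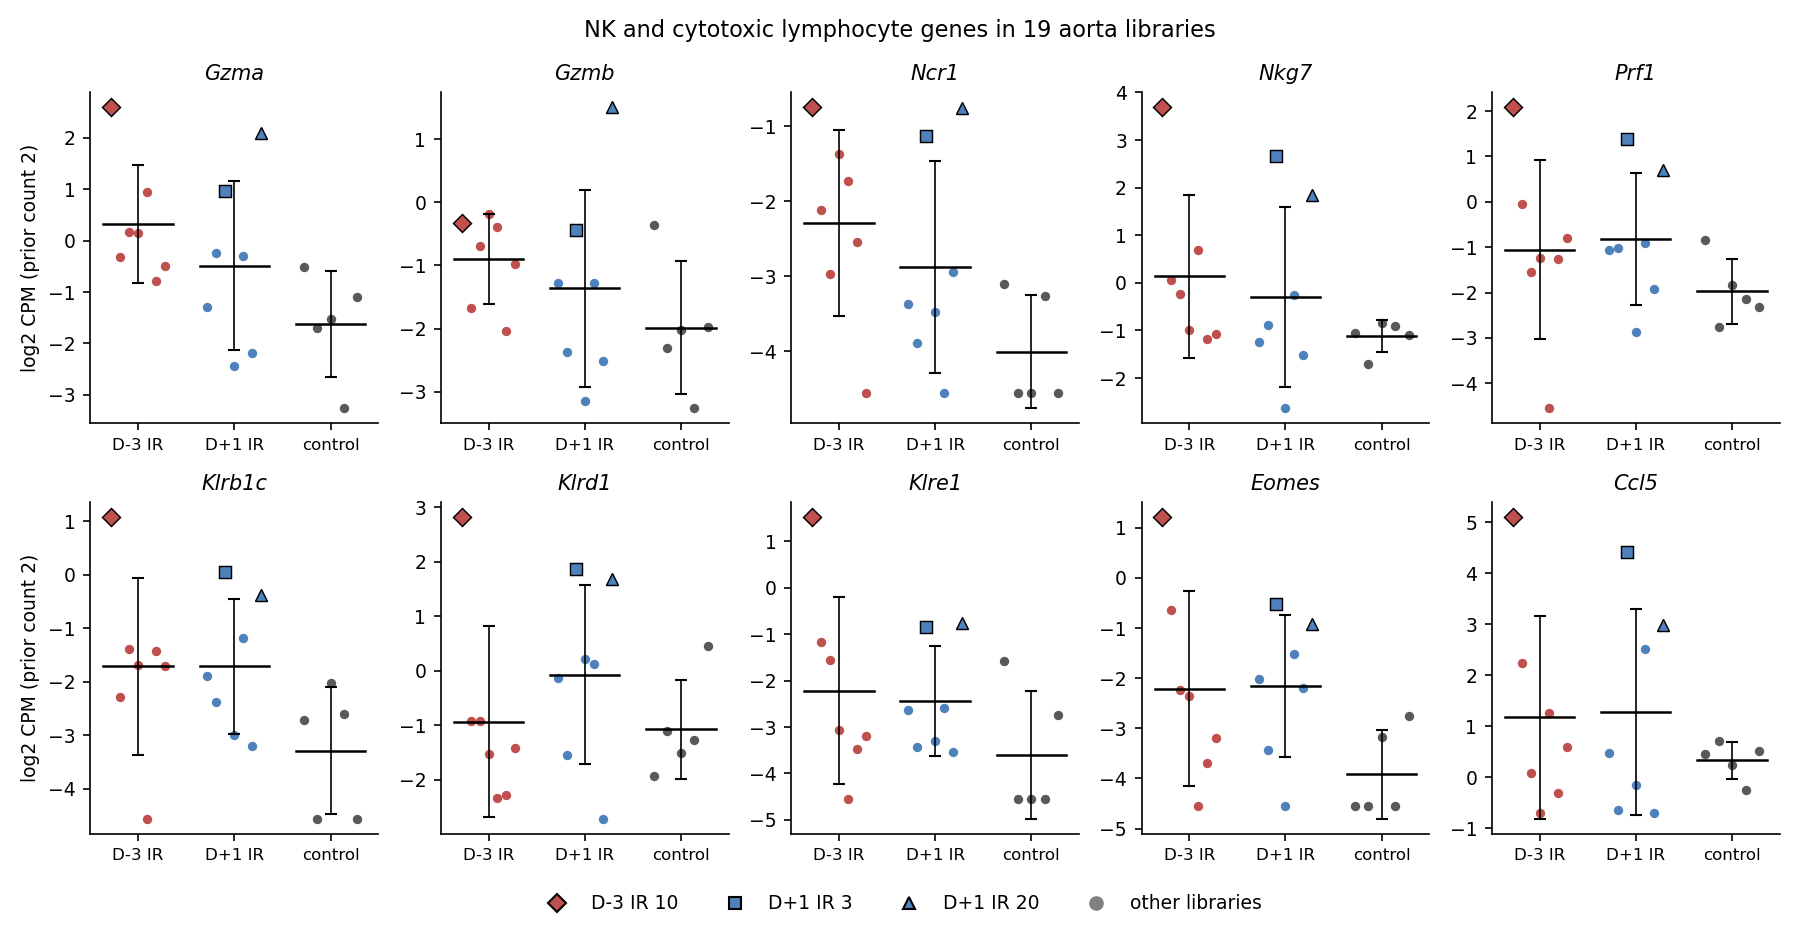
Level of each gene by group, in log2 CPM with a prior count of 2, with D-3 IR, D+1 IR and control from left to right. Each point is 1 library, the line is the group mean and the bar the SD. Diamonds mark D-3 IR 10, squares D+1 IR 3 and triangles D+1 IR 20, which carry the highest values of most genes, while the other irradiated libraries overlap the control libraries.

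The 4 genes of the cytotoxic granule come first. Gzma encodes granzyme A, a trypsin-like protease (chromosome 13, 113093825 to 113100981 on GRCm38, minus strand). Its level was 0.541 to 6.02 CPM with a median of 1.07 CPM in D-3 IR aortas and 0.142 to 4.23 CPM with a median of 0.770 CPM in D+1 IR aortas, against 0.663, 0.265, 0.307, 0.0616 and 0.424 CPM in control aortas. It was above the highest control library (0.663 CPM) in 6 of 7 D-3 IR libraries, of which D-3 IR 16 had 0.667 CPM. This held for 4 of 7 D+1 IR libraries, and the others lay within the control range, so both groups overlapped control. The log2 fold change was 2.32 ± 0.87 (standard error) in D-3 IR against control and 1.79 ± 0.86 in D+1 IR against control. It was 1.55 ± 0.79 and 1.64 ± 0.79 without D-3 IR 10 and D+1 IR 3. Without D+1 IR 20 as well, the value for D+1 IR was 0.38 ± 0.59.

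Gzmb encodes granzyme B, a protease that cuts after aspartate and activates caspases (chromosome 14, 56258838 to 56262260, minus strand). It had 0.20 to 0.841 CPM with a median of 0.573 CPM in D-3 IR aortas and 0.0710 to 2.80 CPM with a median of 0.369 CPM in D+1 IR aortas, against 0.737, 0.159, 0.205, 0.0616 and 0.212 CPM in control aortas. The highest D-3 IR library for Gzmb was D-3 IR 13 and not D-3 IR 10, which had 0.756 CPM, and control 4 lay within the range of the irradiated libraries. Against control, its log2 fold change was 1.00 ± 0.80 for D-3 IR, the smallest of the 10 genes, and 1.25 ± 0.80 for D+1 IR. In D+1 IR it was 1.23 ± 0.87 without D-3 IR 10 and D+1 IR 3. Without D+1 IR 20 as well, it was -0.31 ± 0.64. With D+1 IR 20 alone left out it was 0.11, the lowest value with any single library left out.

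Prf1 encodes perforin, the protein that forms the pore (chromosome 10, 61297833 to 61304680, plus strand). It had 0 to 4.21 CPM with a median of 0.382 CPM in D-3 IR aortas and 0.0947 to 2.56 CPM with a median of 0.452 CPM in D+1 IR aortas, against 0.516, 0.106, 0.239, 0.185 and 0.159 CPM in control aortas. The median of either irradiated group was below the highest control library, and D-3 IR 10 held 61.2% of all Prf1 counts of its group. Its log2 fold change was 1.99 ± 1.04 in D-3 IR against control and 0.79 ± 0.84 without D-3 IR 10 and D+1 IR 3. For D+1 IR it was 1.78 ± 1.04, and 1.17 ± 0.84 without them.

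Nkg7 encodes a small membrane protein of cytotoxic granules needed for their release (chromosome 7, 43437073 to 43438249, plus strand). It had 0.40 to 12.9 CPM with a median of 0.807 CPM in D-3 IR aortas and 0.118 to 6.25 CPM with a median of 0.502 CPM in D+1 IR aortas, against 0.442, 0.265, 0.512, 0.493 and 0.424 CPM in control aortas. The control libraries lay close together, and 4 of 7 D-3 IR and 3 of 7 D+1 IR libraries were above all of them. Against control, the log2 fold change of Nkg7 was 2.54 ± 1.08 for D-3 IR and 1.97 ± 1.06 for D+1 IR. The values were 0.86 ± 0.69 and 1.12 ± 0.69 without D-3 IR 10 and D+1 IR 3, and for D+1 IR -0.04 ± 0.49 without D+1 IR 20 as well.

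Of the 4 receptor genes, Ncr1 is the one known best as an NK cell marker. It encodes NKp46, an activating receptor (chromosome 7, 4337724 to 4345164, plus strand). It had 0 to 0.554 CPM with a median of 0.189 CPM in D-3 IR aortas and 0 to 0.547 CPM with a median of 0.0542 CPM in D+1 IR aortas, against 0.0737, 0, 0, 0.0616 and 0 CPM in control aortas. Ncr1 was above the highest control library in 6 of 7 D-3 IR libraries, and D-3 IR 10 was not far above the others, with 30.1% of the group's 73 counts. The 5 control libraries held 4 counts in all, so the log2 fold changes against control, 3.12 ± 1.21 for D-3 IR and 2.66 ± 1.22 for D+1 IR, rest on few counts. They were 2.72 ± 1.22 and 2.26 ± 1.23 without D-3 IR 10 and D+1 IR 3.

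Klrb1c encodes NK1.1, the antigen by which NK cells are recognised in C57BL/6 mice (chromosome 6, 128778485 to 128789215, minus strand). It had 0 to 2.07 CPM with a median of 0.268 CPM in D-3 IR aortas and 0.0661 to 1.00 CPM with a median of 0.228 CPM in D+1 IR aortas, against 0.111, 0, 0.205, 0.123 and 0 CPM in control aortas. Above the highest control library were 5 of 7 D-3 IR libraries and 4 of 7 D+1 IR libraries. Its log2 fold change was 2.41 ± 1.12 in D-3 IR against control and 1.31 ± 0.98 without D-3 IR 10 and D+1 IR 3. For D+1 IR it was 2.02 ± 1.11, and 1.57 ± 0.98 without them. Klrb1c overlaps the annotated gene Gm44511 on the same strand, so its counts can be incomplete.

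Klrd1 encodes CD94, which pairs with NKG2 chains to read the class Ib molecule Qa-1 (chromosome 6, 129591782 to 129598775, plus strand). It had 0.155 to 6.98 CPM with a median of 0.333 CPM in D-3 IR aortas and 0.110 to 3.59 CPM with a median of 1.05 CPM in D+1 IR aortas, against 0.221, 0.425, 0.307, 0.370 and 1.33 CPM in control aortas. Only D-3 IR 10 of the D-3 IR libraries was above the highest control library, control 9, and the D-3 IR median lay below the control median of 0.370 CPM. Against control, its log2 fold change was 1.26 ± 1.00 for D-3 IR with all libraries and -0.73 ± 0.68 without D-3 IR 10 and D+1 IR 3. For D+1 IR it was 1.45 ± 1.01, and 1.05 ± 0.68 without them. Klrd1 was the only one of the 10 genes whose direction in D-3 IR against control turned without these libraries, and limma voom, which gives less weight to deviating libraries, also put it below 0 (-0.23).

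Klre1 encodes a further lectin-like receptor of NK cells, a neighbour of Klrd1 in the NK gene complex (chromosome 6, 129577905 to 129585827, plus strand). It had 0 to 2.82 CPM with a median of 0.0765 CPM in D-3 IR aortas and 0.0441 to 0.547 CPM with a median of 0.119 CPM in D+1 IR aortas, against 0.295, 0, 0, 0 and 0.106 CPM in control aortas. D-3 IR 10 held 75.2% of the Klre1 counts of D-3 IR, and the medians of the irradiated groups were below the level of control 4. Against control, the log2 fold change of Klre1 for D-3 IR was 2.80 ± 1.40, and 0.96 ± 1.2 without D-3 IR 10 and D+1 IR 3. For D+1 IR it was 1.42 ± 1.37, and 1.02 ± 1.19 without them. The control libraries held 12 counts in all.

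Eomes encodes the T-box transcription factor eomesodermin, which maintains NK cell maturity (chromosome 9, 118478212 to 118486132, plus strand). It had 0 to 2.27 CPM with a median of 0.153 CPM in D-3 IR aortas and 0 to 0.656 CPM with a median of 0.206 CPM in D+1 IR aortas, against 0, 0, 0.0682, 0 and 0.106 CPM in control aortas. Eomes was above the highest control library in 4 of 7 D-3 IR and 5 of 7 D+1 IR libraries, more of the D+1 IR libraries than for any other of the 10 genes. Its log2 fold changes were the largest of the 10 against control, 3.53 ± 1.41 for D-3 IR and 2.71 ± 1.39 for D+1 IR, over 8 counts in the control libraries. They were 2.05 ± 1.24 and 2.32 ± 1.24 without D-3 IR 10 and D+1 IR 3, and the value for D+1 IR was 1.87 ± 1.27 without D+1 IR 20 as well. Eomes overlaps the antisense gene Gm33460. Since counts fell on both strands alike, strand could not separate the reads of the pair, and the Eomes counts can be incomplete.

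Ccl5 encodes the chemokine RANTES, made by cytotoxic lymphocytes and also by other leukocytes (chromosome 11, 83525778 to 83530518, minus strand). It was the most abundant of the 10, with 0.573 to 34.3 CPM and a median of 1.47 CPM in D-3 IR aortas and 0.573 to 21.2 CPM and a median of 1.34 CPM in D+1 IR aortas, against 1.33, 1.59, 1.14, 0.801 and 1.38 CPM in control aortas. The medians of the 3 groups were close to each other, and the means were far apart, at 6.45 ± 12.4 CPM in D-3 IR, 5.46 ± 7.54 CPM in D+1 IR and 1.25 ± 0.30 CPM in control (SD, n = 7, 7 and 5). Against control, Ccl5 had a log2 fold change of 2.37 ± 1.13 for D-3 IR, and 0.54 ± 0.71 without D-3 IR 10 and D+1 IR 3. For D+1 IR it was 2.12 ± 1.12, and 1.18 ± 0.72 without them.

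Per kilobase of exon, the order of the mean CPM over the 19 libraries was Ccl5 (4.91), Nkg7 (1.82), Gzma (1.16), Klrd1 (0.894), Gzmb (0.359), Prf1 (0.28), Klrb1c (0.116), Ncr1 (0.0982), Klre1 (0.0840) and Eomes (0.0677). The SD over libraries was larger than the mean for each gene, and differences between neighbours in this order were not tested. By medians over the libraries the order differed in places, with Gzma (0.663) above Nkg7 (0.540) and Eomes (0.0255) above Klre1 (0.0219). In control aortas the mean of Klrd1 (0.413) was above that of Gzma (0.342). Klrb1c, Klre1, Eomes and Ncr1 were the least abundant, with 121 to 269 counts each over all 19 libraries, while the receptor gene Klrd1 had 898.

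Across all genes, none of the 17617 genes tested passed edgeR's quasi-likelihood test at a Benjamini-Hochberg adjusted p of 0.05 in D-3 IR against control, and 232 (1.32%) had an unadjusted p under 0.05. DESeq2 and limma voom also called 0 genes there. All 10 genes had a log2 fold change above 0 in D-3 IR against control, where 43.1% of all genes tested did. The median was 2.39 over the 10 genes (1.35 with limma voom) and -0.03 over all genes tested. The unadjusted p was under 0.05 for 6 of the 10, with higher levels in D-3 IR, which held for 0.5% of all genes, and for 0 of the 10 with lower levels (0.817% of all genes). All 10 had a log2 fold change above 1 (2.44% of all genes), and the adjusted p from edgeR was 1.00 for each. No gene of the 10 had all D-3 IR libraries above all control libraries, and 0% of all genes tested did. The count of 6 was 8 with DESeq2, 1 with limma voom, 3 without control 5 or control 9, and 0 of the 8 genes still tested without D-3 IR 10. As the genes were chosen with this contrast known, nothing is read from these shares.

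In D+1 IR against control 0 genes passed the edgeR test, 1253 (7.11%) had an unadjusted p under 0.05, and DESeq2 called 2 genes and limma voom 0. All 10 genes again had a log2 fold change above 0, as did 44.9% of all genes, with a median of 1.88 over the 10 (0.81 with limma voom) and -0.04 over all genes. The unadjusted p was under 0.05 for 1 of the 10, Ncr1, with a higher level (2.28% of all genes) and for 0 with a lower level (4.84% of all genes). All 10 had a log2 fold change above 1 (3.89% of all genes), none had all D+1 IR libraries above all control libraries (0.0341% of all genes), and edgeR's adjusted p was 0.644 to 0.761. The count of 1 was 6 with DESeq2, 0 with limma voom or the newer edgeR method, and 3 without control 4. Both comparisons share the control libraries, so the second is not independent of the first. For both irradiated groups together, as the mean of D-3 IR and D+1 IR against control, the median of the 10 was 2.16, from 1.13 for Gzmb to 3.12 for Eomes, and edgeR's adjusted p was 0.981 for each. A log2 fold change above 0 was found for all 10 there and for 42.2% of all genes, above 1 for all 10 and for 2.42% of all genes, and an unadjusted p under 0.05 with a higher level for 6 of the 10 and for 0.664% of all genes. With a lower level it was found for 0 of the 10 and for 1.16% of all genes. Over all genes 0 passed the edgeR test there, 321 (1.82%) had an unadjusted p under 0.05, and DESeq2 and limma voom called 0.

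Fitted with the same genes but without D-3 IR 10 and D+1 IR 3, the median log2 fold change of the 10 genes against control was 0.94 for D-3 IR, with 9 of 10 above 0, and 1.2 for D+1 IR, with 10 of 10. Without D+1 IR 20 as well, it was 0.94 for D-3 IR and 0.44 for D+1 IR, with 9 and 8 of 10 above 0. These medians were over 1.5 times smaller than with all 19 libraries. Gzmb (0.91 of 1.00) and Ncr1 (2.72 of 3.12) kept the largest part of their D-3 IR values, and Ccl5 (0.54 of 2.37) and Klrd1 the smallest. No gene of the 10 passed the test in any of the fits.

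**Figure D2:**
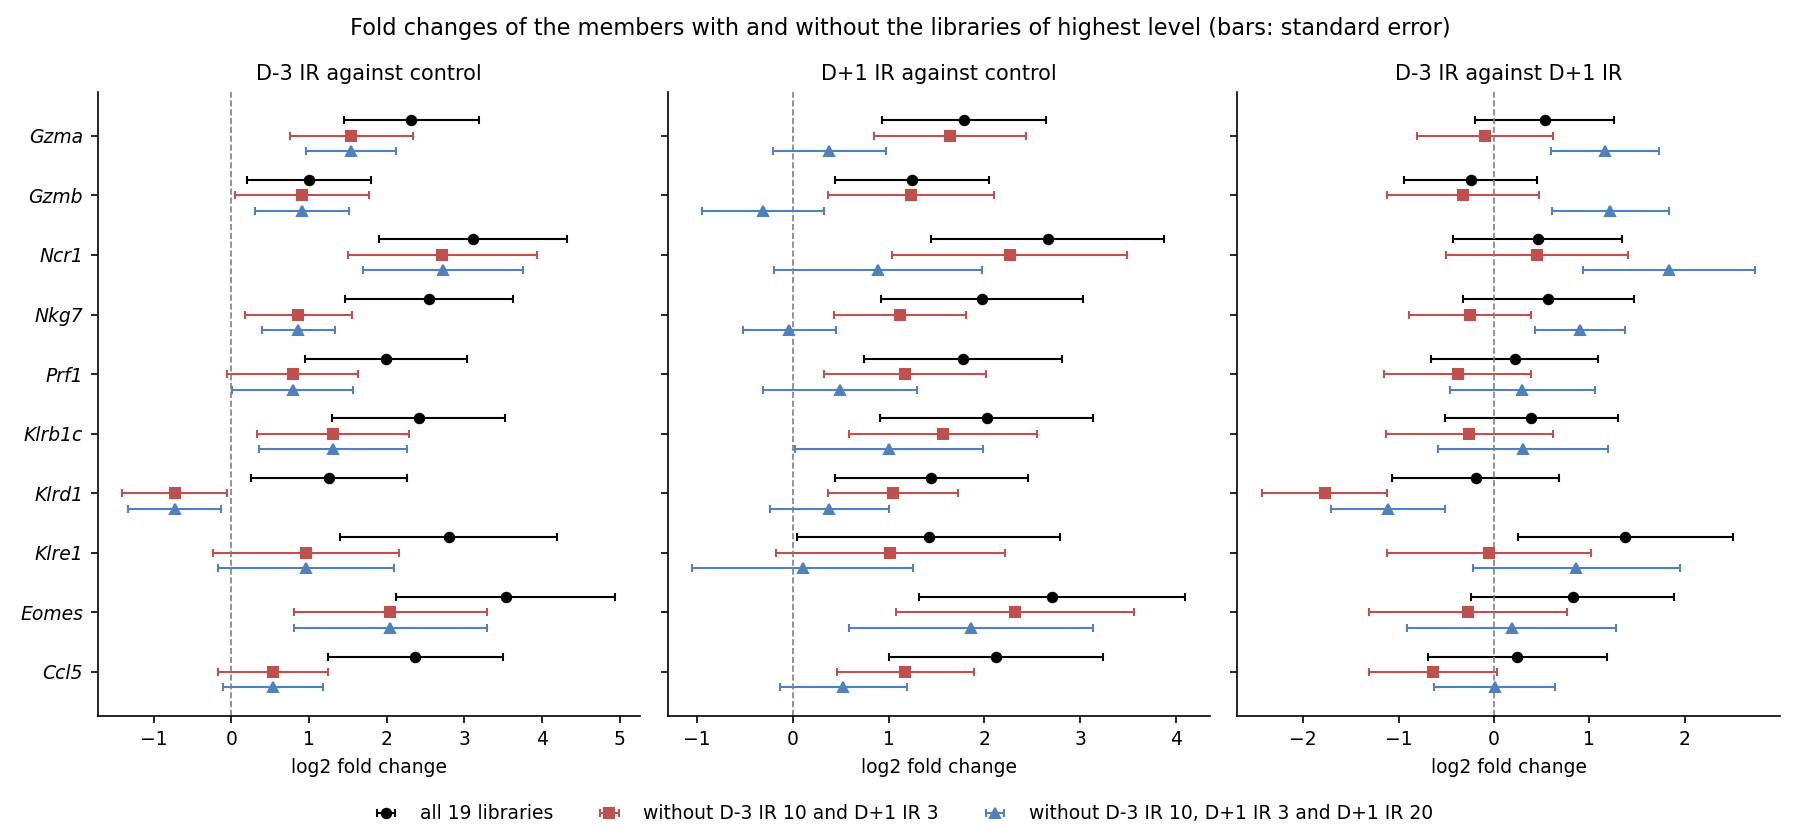
Log2 fold change of each gene, with bars of ± 1 standard error from edgeR, for each irradiated group against control and for D-3 IR against D+1 IR. Colours give the fit of all 19 libraries, the fit without D-3 IR 10 and D+1 IR 3, and the fit without these and D+1 IR 20. In D-3 IR against control Klrd1 is at 1.26 with all libraries and at -0.73 without D-3 IR 10 and D+1 IR 3, and most values lie closer to 0 without the libraries.

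Between the irradiated groups, in D-3 IR against D+1 IR, the 10 genes had log2 fold changes of -0.25 to 1.38 with standard errors of 0.70 to 1.13, and 8 were above 0, where 45.4% of all genes were. The largest was Klre1 at 1.38 ± 1.13, followed by Eomes at 0.83 ± 1.06, and the lowest were Gzmb at -0.25 ± 0.70 and Klrd1 at -0.19 ± 0.88. The edgeR test called 0 genes, with 2018 (11.5%) at an unadjusted p under 0.05, 6.71% with higher and 4.75% with lower levels in D-3 IR, none of them among the 10, whose adjusted p was 0.625 to 0.943. A log2 fold change above 1 was found for 1 of the 10, Klre1, and for 3.97% of all genes. DESeq2 called 56 genes and limma voom 2298, again none of the 10. Without D-3 IR 10 and D+1 IR 3 only Ncr1 was above 0, at 0.45 ± 0.96, the median was -0.26, and Klrd1 was at -1.77 ± 0.66. Without D+1 IR 20 as well, 9 of 10 were above 0 with a median of 0.58, so the direction between the irradiated groups followed which libraries were kept. The medians of CPM differed by little for most genes, and Klrd1, at 0.333 CPM for D-3 IR and 1.05 CPM for D+1 IR, had the widest gap in CPM. Relative to its low level the gap of Ncr1 was also wide and lay the other way, at 0.189 CPM for D-3 IR and 0.0542 CPM for D+1 IR.

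The markers of other leukocytes were set beside these values in each library. The sum of 20 T cell genes, none at 0 in any group, was 7.22 to 415.7 CPM in D-3 IR, 7.01 to 238.1 CPM in D+1 IR and 10.6 to 16.1 CPM in control aortas. In D-3 IR 10 and D+1 IR 3 the 10 cytotoxic genes stood at 0.175 and 0.163 of the T cell sum, the lowest ratios of all 19 libraries. In D+1 IR 20 the ratio was 0.571, with a T cell sum of 44.7 CPM, and this library had the highest macrophage sum (3745 CPM) of the 19. The high levels in D-3 IR 10 and D+1 IR 3 thus came with a still larger excess of T cell genes, and those in D+1 IR 20 did not. Genes of lymph node stroma and lymphatic vessels summed to 647 CPM in library D-3 IR 10 and 402 CPM in library D+1 IR 3, against 31.6 to 201.8 CPM in the other irradiated libraries and 31.2 to 95.1 CPM in control aortas. Skeletal muscle genes summed to 6301 CPM in D-3 IR 10, but also to 2559 CPM in D-3 IR 15, whose sum over the cytotoxic genes was 2.99 CPM, and to 610.0 CPM in control 5. The part of these cells and tissues in the levels of the cytotoxic genes was not tested.

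Relative to the T cell sum, the 10 genes had a ratio of 0.175 to 0.60 (median 0.494) in D-3 IR, 0.163 to 0.571 (median 0.270) in D+1 IR and 0.194 to 0.343 (median 0.266) in control aortas. Above the highest control library were 5 of 7 D-3 IR libraries and 2 of 7 D+1 IR libraries, with overlap in both cases. These ratios carry no test, since the genes were chosen on these levels.

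**Figure D3:**
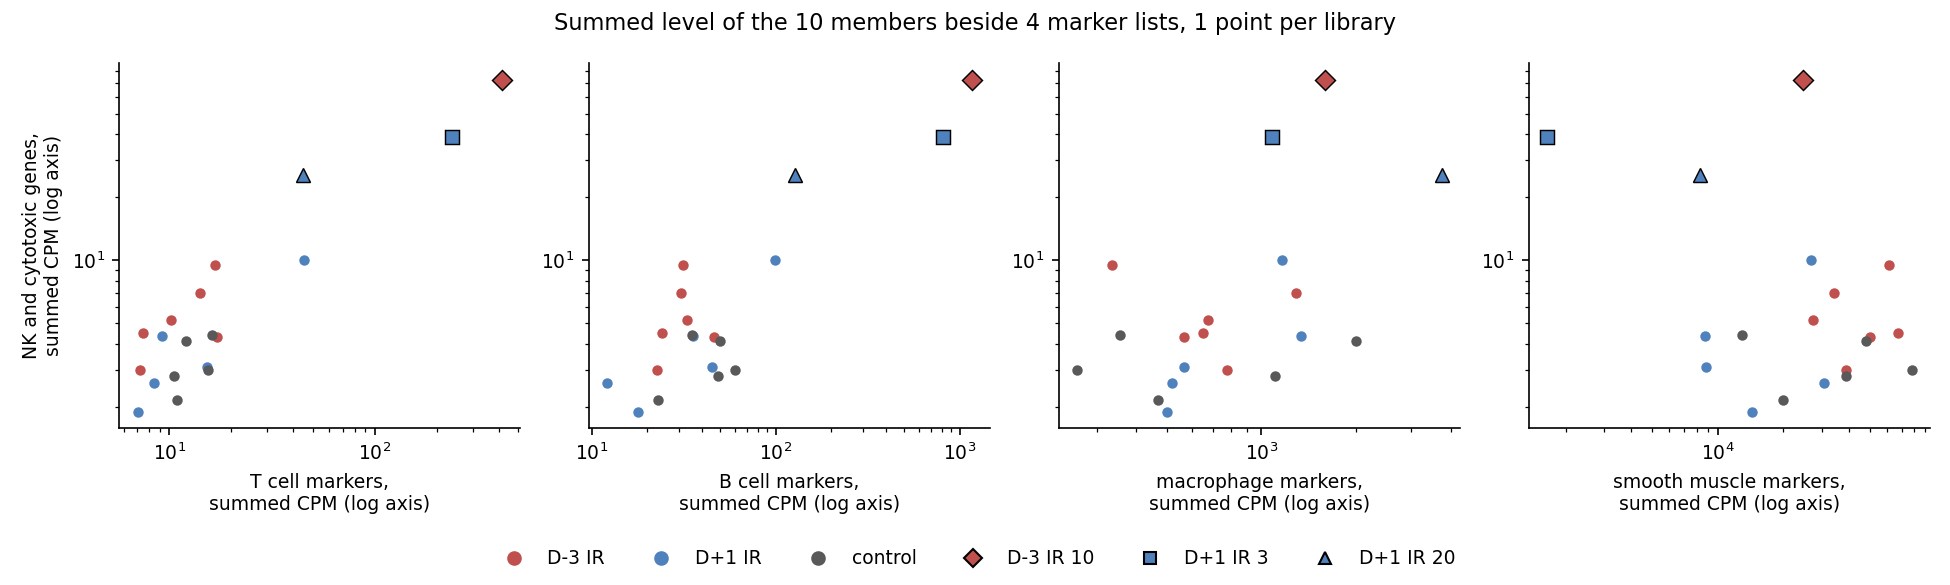
Summed CPM of the 10 cytotoxic genes in each library (vertical, log axis) against the summed CPM of T cell, B cell, macrophage and smooth muscle genes (horizontal, log axes), coloured by group. D-3 IR 10 (72.8 CPM) and D+1 IR 3 (38.8 CPM) lie at the top with the highest T and B cell sums, and D+1 IR 20 (25.5 CPM) lies at a T cell sum of 44.7 CPM with the highest macrophage sum.

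The make-up of the 10 genes also differed between these libraries. Ccl5 took 47.1% of their 2890 counts in D-3 IR 10 (95% Wilson interval 45.2% to 48.9%) and 54.7% of 1124 counts in D+1 IR 3 (51.8% to 57.6%), against 31.1% of 840 counts in D+1 IR 20 (28.0% to 34.3%). The 2 granzymes took 9.31% (8.30% to 10.4%) in D-3 IR 10 and 6.67% (5.36% to 8.28%) in D+1 IR 3, against 27.5% (24.6% to 30.6%) in D+1 IR 20. The intervals of D+1 IR 20 lay apart from those of D-3 IR 10 and D+1 IR 3. No difference is read from this, as the libraries were singled out by these genes and the intervals are too narrow. Libraries with low levels had shares as high. The Ccl5 share was 56.8% in D+1 IR 18 and 56.6% in control 5, and the granzyme share 42.7% in D-3 IR 13 and 31.9% in control 4. Over the groups the Ccl5 share had a median of 33.8% for D-3 IR, 31.1% for D+1 IR and 37.1% for control aortas. The granzyme share had a median of 26.4% for D-3 IR, 16.3% for D+1 IR and 15.4% for control aortas, with overlapping ranges. Intervals cover counting error only, and since reads were counted without molecular identifiers they are too narrow for molecules.

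D-3 IR 14 showed a split among the 10 genes. It had 147 counts of Gzma, 56 of Gzmb, 121 of Nkg7, 182 of Ccl5, 20 of Ncr1 and 12 of Klrd1. Prf1, Klrb1c, Klre1 and Eomes had 0 counts among its 77543266 counts in genes. A count of 0 allows a level of up to 0.0387 CPM (3 counts) there if each count is an independent molecule. Prf1 was above that value in each of the other 18 libraries. Its Gzma level of 1.90 CPM was the highest of D-3 IR after D-3 IR 10. This library had a count for 20114 genes, the fewest of the 19 (20619 to 25145 in the others), in spite of its depth. It also had the fewest genes with 1 to 100 counts, 6927. With so few genes of low count, and if both mates of a pair were counted, the bound of 0.0387 CPM is too low. Whether Prf1 was lower there than in the other aortas was therefore not settled. Without D-3 IR 14 the median log2 fold change of the 10 genes was 2.57 in D-3 IR against control.

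Klrd1 departed from the other receptors in a different way. In D+1 IR 17 it made up 43.2% of the 220 counts of the 10 genes, at 1.12 CPM, and in control 9 it made up 32.1% at 1.33 CPM, while Ncr1, Klrb1c and Klre1 were at 0.0473, 0.0828 and 0.0592 CPM in D+1 IR 17 and at 0, 0 and 0.106 CPM in control 9. Klrd1 counts therefore did not track the counts of the other receptors in these libraries.

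The 10 genes were then compared with each other across libraries, on log2 CPM. All 45 pairs had a positive Spearman rho over the 19 libraries, from 0.108 to 0.825 with a median of 0.561. The highest was that of the granzymes, Gzma with Gzmb (rho = 0.825, Pearson r = 0.861, and r = 0.878 without the 2 libraries farthest from the median of Gzma). Gzma with Nkg7 (rho = 0.818) and Prf1 with Klre1 (rho = 0.791) followed, and the lowest was Ncr1 with Klrd1 (rho = 0.108, r = 0.379, r = -0.02 without the 2 farthest libraries). These correlations are a description and carry no test, since the genes were chosen with their levels in these libraries known. Klre1 and Gzma had the highest median rho with the other 9 genes (0.654 and 0.619) and Klrd1 the lowest (0.386). The libraries share depth, composition and, for 3 of them, high leukocyte genes.

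The correlations were lower without the libraries that stood apart. The median rho within groups was 0.464 over the 7 D-3 IR libraries and 0.821 over the 7 D+1 IR libraries, and that of deviations from the group means 0.534. Without D-3 IR 10 and D+1 IR 3 the median rho was 0.395. With D-3 IR 10 alone left out it was 0.484, with D+1 IR 20 alone left out 0.485, and with D+1 IR 3 alone left out 0.490. Without D+1 IR 1, 2 and 3, whose files carry another numbering than the others, the median rho was 0.552. The labels do not say what that numbering stands for.

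**Figure D4:**
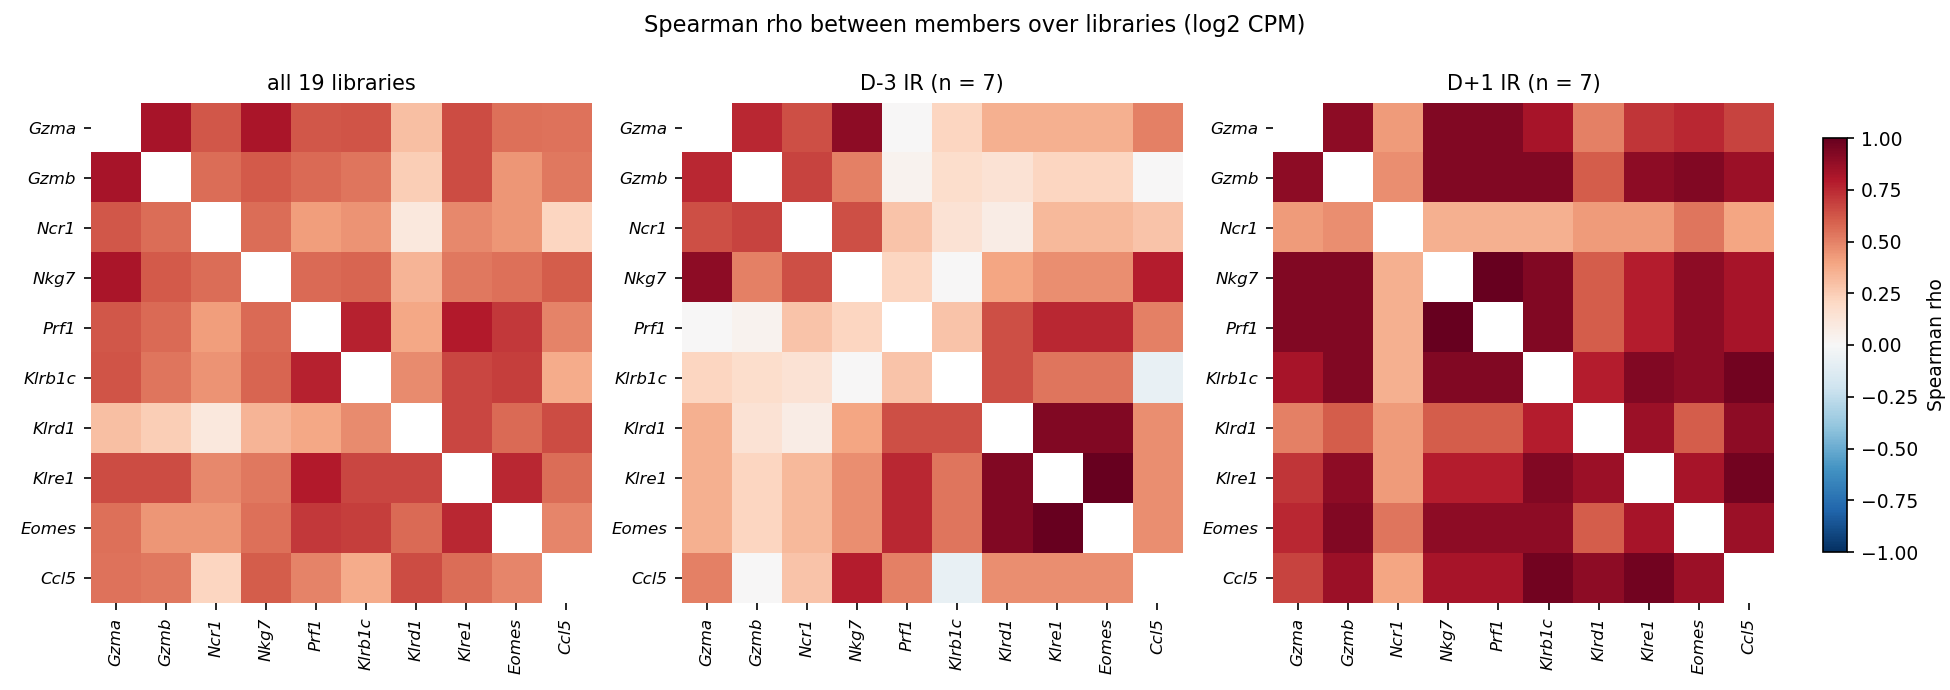
Spearman rho between the log2 CPM of each pair of the 10 genes over all 19 libraries, over the 7 D-3 IR libraries and over the 7 D+1 IR libraries, as heat maps on 1 colour scale. The palest pair over all libraries is Ncr1 with Klrd1 (rho 0.108), while Klrd1 with Klre1 is at 0.668. The D+1 IR panel has the highest median (0.821), and the pairs of Ncr1 are lower there, at 0.357 to 0.536.

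Outside the 10 genes, those whose log2 CPM over the 19 libraries were most like the mean of the standardised log2 CPM of the 10 were, by Spearman rho, Klri2 (0.792), Gm47260 (0.781), Cdca7l (0.781), Iglv1 (0.774), Spn (0.767), Ms4a4b (0.765), H2-Q5 (0.758), Ubd (0.756), Nlrc3 (0.744) and 2010016I18Rik (0.735). Klri2 encodes an NK cell receptor of the same gene complex as Klrd1 and Klre1, Ms4a4b and Spn membrane proteins of T cells, and Iglv1 an immunoglobulin light chain of B cells. None of the 17607 other genes had a rho above 0.8. The T cell genes had a median rho of 0.546 with this mean, the B cell genes 0.496, and the smooth muscle and fibroblast genes -0.26 and -0.40.

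The further genes of the pathway were taken from lists, and no gene of any list passed the edgeR test in irradiated against control aortas. Of 45 wider NK and cytotoxic genes 25 were abundant enough to be tested, with 16 log2 fold changes above 0 and 9 below, and a median of 0.65. The receptor subunit Il2rb, which binds IL-2 and IL-15, had a log2 fold change of 1.79 ± 0.89, and 0.48 ± 0.43 without D-3 IR 10 and D+1 IR 3. The inhibitory receptor Klrg1 was at 1.47 ± 0.74, and at 1.2 ± 0.73 without these libraries. The chemokines Ccl4 (-2.96 ± 0.96) and Ccl3 (-2.20 ± 0.91), which T cells and myeloid cells also make, lay on the other side of 0 from Ccl5. Their direction rested on control 9, without which they were at 0.95 ± 0.90 and 1.61 ± 0.83. Control 9 also had the highest sum of neutrophil genes of all libraries (932 CPM, against 1.14 to 103 CPM in the others). The median of the 10 cytotoxic genes did not rest on it, at 2.20 without control 9 and 2.16 with it. Single genes moved more, such as Klrd1, at 2.03 without control 9 and 1.35 with it. An unadjusted p under 0.05 from edgeR was found for 2 of the 10 without control 9 and for 6 with it. The wider genes had a median of -0.15, with 12 of 25 above 0, once D-3 IR 10 and D+1 IR 3 were left out.

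Genes of granule biogenesis, release and control had 4 log2 fold changes above 0 and 9 below among 13 tested, with a median of -0.10. Srgn, whose product serglycin packs granzymes, averaged 50.2 ± 27.5 CPM in D-3 IR aortas and 58.0 ± 13.0 CPM in D+1 IR aortas, against 234 ± 455 CPM in control aortas (SD), where it ran from 17.1 to 1047 CPM. Its log2 fold change was -2.12 ± 0.65 with all libraries and 0.81 ± 0.35 without control 9. The syntaxin Stx11, needed for granule fusion, was at -1.15 ± 0.49 with all libraries and at 0.49 ± 0.31 without control 9. The serpin Serpina3g was at 1.79 ± 0.91 and Lyst, a regulator of lysosome size, at -0.29 ± 0.25. Without control 9 the list had 9 of 13 above 0 and a median of 0.20, so the direction of the granule machinery followed that library.

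Among 21 tested genes of NK-supporting cytokines and signalling 18 were above 0 and 3 below, with a median of 0.59. The kinases Zap70 (2.40 ± 1.05) and Lck (2.09 ± 1.09) and the receptor chain Cd247 (1.68 ± 0.76), which T cells also use, had the largest values named, and the cytokine Il7 was at 0.59 ± 0.30. In the fit without D-3 IR 10 and D+1 IR 3, Zap70 was at 0.96 ± 0.59, Lck at 0.25 ± 0.46, Cd247 at 0.84 ± 0.49 and Il7 at 0.45 ± 0.28, and the median of the list was 0.12. The median was -0.15, with 10 of 21 above 0, once D+1 IR 20 was left out too. It was 0.99 without control 9.

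Of the ligands of NK receptors and class I MHC genes, 13 of 15 tested were above 0, with a median of 0.31. The class I gene H2-K1 averaged 670 ± 332 CPM in D-3 IR aortas and 749 ± 317 CPM in D+1 IR aortas, against 466.1 ± 147 CPM in control aortas (SD), a log2 fold change of 0.60 ± 0.31. The peptide transporter Tap1 was at 0.59 ± 0.40, H2-D1 at 0.39 ± 0.28 and B2m, the light chain of class I, at 0.32 ± 0.21. The median of the list was 0.25 without D-3 IR 10 and D+1 IR 3, 0.06 without D+1 IR 20 as well, and 0.49 without control 9.

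Of the receptors of Ccl5 and other lymphocyte chemokines 7 of 11 tested were above 0 and 4 below, with a median of 0.31. Cxcr6 (1.90 ± 0.74) and Cxcr3 (1.52 ± 0.68), receptors on activated lymphocytes, were at 1.17 ± 0.50 and 0.72 ± 0.41 without D-3 IR 10 and D+1 IR 3. Ccr1, a receptor of Ccl5 on myeloid cells, had a log2 fold change of -2.24 ± 0.88 with all libraries and 1.25 ± 0.78 without control 9. The chemokine Cxcl12 was at 0.38 ± 0.18. The median of the list was 0.20 without D-3 IR 10 and D+1 IR 3, -0.06 without D+1 IR 20 as well, with 5 of 11 above 0, and 0.75 without control 9.

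In the marker lists of other cells, T cell genes were above 0 in 20 of 20 cases with a median of 2.28, and B cell genes in 13 of 13 with a median of 2.40, close to the median of 2.16 of the 10 cytotoxic genes. Cd4 (2.54) and Cd8a (2.76), the coreceptors of helper and cytotoxic T cells, and the B cell receptor chain Cd79b (2.82) were among them. Without D-3 IR 10 and D+1 IR 3 the median was 0.38 for T cell genes, with 17 of 20 above 0, and -0.38 for B cell genes, with 3 of 13 above 0, while the 10 cytotoxic genes had a median of 1.03 with all 10 above 0. Without D+1 IR 20 as well the medians of T cell, B cell and cytotoxic genes were 0.16, -0.62 and 0.59. Without control 9 they were 2.29, 2.26 and 2.20. The median of the cytotoxic genes thus lay near those of other lymphocytes with all libraries and without control 9. It lay above them without D-3 IR 10 and D+1 IR 3. The wider NK and cytotoxic genes did not share this, with a median of -0.15 and 12 of 25 above 0 in that fit. As the 10 genes were chosen with their levels in these libraries known, nothing is read from the difference between lists, which was not tested. Genes of innate lymphoid and gamma delta T cells, which share receptors and factors with NK cells, had a median of 0.12, with 6 of 8 above 0. Macrophage genes had 7 of 8 above 0 with a median of 0.25, and of 0.86 without control 9. Neutrophil genes had 0 of 7 above 0 with a median of -3.13, and of -0.32 without control 9. Smooth muscle genes differed between the irradiated groups, with 8 of 8 above 0 and a median of 0.13 in D-3 IR, and 0 of 8 and a median of -1.02 in D+1 IR, against control.

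**Figure D5:**
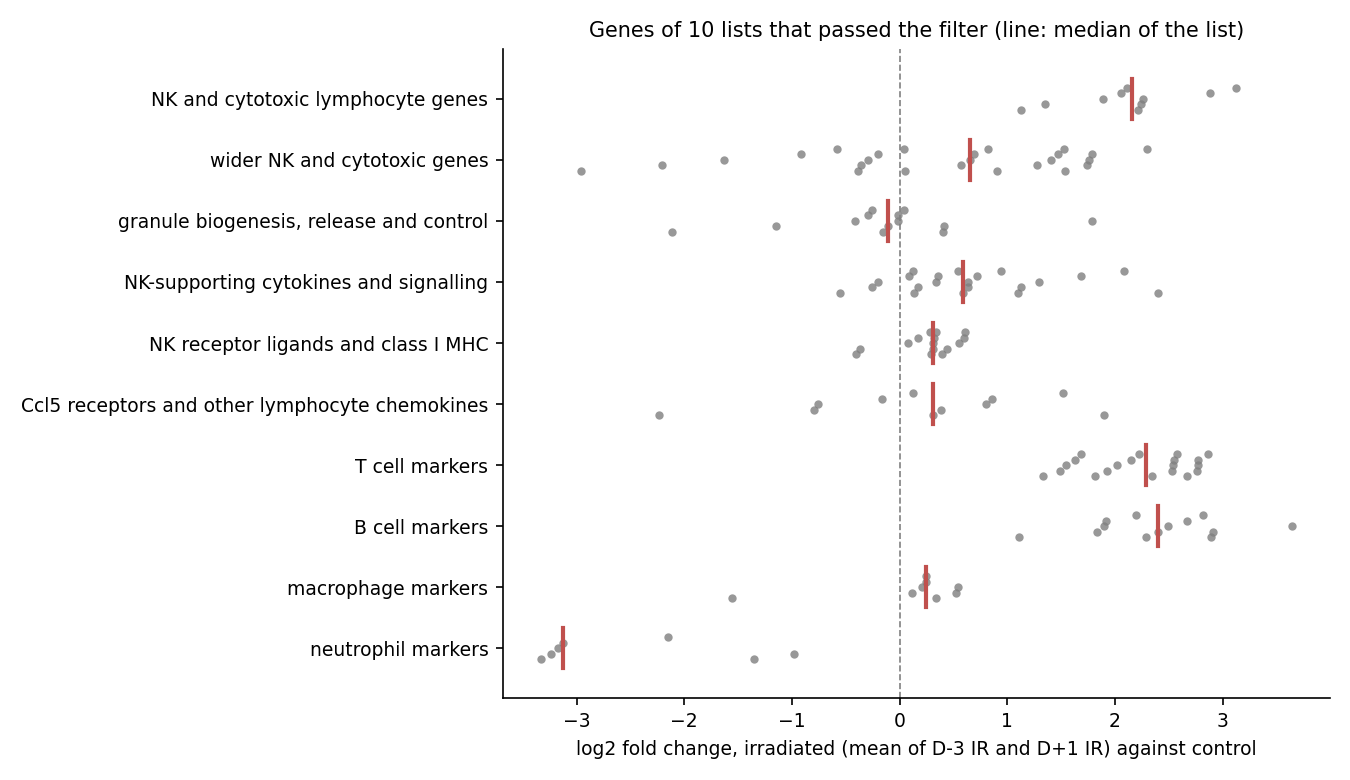
Log2 fold change in irradiated (mean of D-3 IR and D+1 IR) against control aortas of every tested gene of 10 lists, 1 point a gene, with a line at the median of each list. The 10 cytotoxic genes (median 2.16) lie beside the T cell (2.28) and B cell genes (2.40), while the wider NK genes (0.65) and the granule genes (-0.10) lie lower. The points of the granule list below -1, Srgn and Stx11, rest on control 9.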

How the data were processed

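RNA of 19 abdominal aortas, 1 library per mouse, was made into poly(A)-selected TruSeq Stranded libraries. After quality checks in FastQC, the authors mapped reads to GRCm38 by STAR 2.7.9a and deposited raw counts of reads per gene for each library, with a joined table. All 773262 values of the joined table were equal to the unstranded counts of the library files, which were used here. The release of the gene annotation is not given in the sources used here, and positions were taken from GENCODE M21. Although the kit marks strand, 49.9% to 50.1% of the stranded counts fell on the second strand, and 60.5% to 65.4% of counts of 1 to 100 were even, so counts may hold both mates of a pair and counting intervals are then too narrow.

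Genes were tested in R 4.3.3 by edgeR 4.0.16, after TMM scaling and the function filterByExpr (minimum count 10, minimum total 15), a design of 3 group means without covariate and two-sided quasi-likelihood F-tests in their legacy form, adjusted by Benjamini-Hochberg at 0.05 over all 17617 genes tested. All 10 genes passed the filter. The common biological coefficient of variation was 0.591. CPM are scaled by TMM, and log2 CPM used a prior count of 2. Correlations used 100000 permutations, so the smallest p they can give is 1e-05. No library was a copy of another of its group, and pairs of different groups were not compared. The p-values measure the spread between single mice. The 10 genes, the lists and the motifs were chosen with earlier results of these data known. Of the list genes, 244 of 250 matched a gene name. Named are the 10 genes, at most 4 genes per list with the smallest p in irradiated against control, and the 10 genes most like the mean of the members, and the overlapping genes Gm44511 and Gm33460 are outside this rule. Alternatives were DESeq2 1.42.0, limma 3.58.1 with voom, the newer edgeR method, other normalizations and filters, the second strand, fits limited to the groups of a comparison and fits without libraries. The tests were tried on simulated data.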

Additional observations from a re-analysis of the deposited data

Results flagged for a closer look

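In 13 of 30 combinations of gene and group, 1 library stood apart from the rest of its group by Dixon's 95% criterion. The genes were chosen with these levels known, so this count is a description and carries no test. Over all genes tested the highest library did so in 12.5% of genes for D-3 IR, 15.2% for D+1 IR and 9.75% for control.

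D-3 IR 10 accounted for 8 of the 13. Its levels were 6.02 CPM for Gzma (next highest of D-3 IR 1.90), 12.9 for Nkg7 (1.56), 4.21 for Prf1 (0.919), 2.07 for Klrb1c (0.340), 6.98 for Klrd1 (0.488), 2.82 for Klre1 (0.405), 2.27 for Eomes (0.595) and 34.3 for Ccl5 (4.70). Gzmb and Ncr1 did not stand apart there.

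In D+1 IR, library 20 stood apart for Gzma at 4.23 CPM (next 1.90) and for Gzmb at 2.80 CPM (next 0.691), and library 3 for Ccl5 at 21.2 CPM (next 7.94). The granzymes and the chemokine were thus highest in different mice. In control aortas, library 4 stood apart for Gzmb at 0.737 CPM (next 0.212) and library 9 for Klrd1 at 1.33 CPM (next 0.425).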

How the results depend on the processing

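Of 33 settings, none called any of the 10 genes. The number of genes called over all genes was 0 with the edgeR test, 2 with DESeq2 for D+1 IR against control, 56 with DESeq2 and 2298 with limma voom between the irradiated groups, and 1 in irradiated against control with the newer edgeR method. With each library left out in turn it was 0 to 1 in irradiated against control and 0 in the other comparisons. The number of the 10 genes with a log2 fold change above 0 (10 for D-3 IR, 10 for D+1 IR and 10 for both together against control, and 8 between the irradiated groups) was lower mostly where fewer of them passed the filter. In the order D-3 IR, D+1 IR, between the irradiated groups and both together, it was 3, 3, 2 and 3 with at least 1 CPM in at least 5 libraries, with 3 genes tested, 6, 6 and 5 with only the groups compared, and 6, 6, 4 and 6 with second-strand counts. Refitted without D-3 IR 10 and D+1 IR 3, which left 7 genes, it was 6 for D-3 IR against control and 0 between the irradiated groups. With the genes tested in all libraries kept, an alternative chosen after seeing the data like the fits without D+1 IR 20, without D-3 IR 14 and of lists without control 9, it was 1 between the irradiated groups. With each library left out it was 7 to 10, 8 to 10, 0 to 8 and 8 to 10 in the 4 comparisons, the 0 being without D-3 IR 10. The number of pairs with an adjusted permutation p under 0.05 by Spearman rho, 31 of 45, is no test of genes chosen on these levels. It was 4 without D-3 IR 10 and D+1 IR 3, 19 without D+1 IR 1, 2 and 3, and 12 to 36 with each library left out. With limma voom the medians of the 10 genes were 1.35, 0.81, 0.27 and 1.08. Without D+1 IR 1, 2 and 3 they were 2.35, 1.62, 0.64 and 2.03 over 9 genes. The cause of these differences was not tested beyond the number of genes and libraries. No paired analysis was possible because every library is of a different mouse and the groups have no replicate number in common. Ncr1, Eomes, Klre1 and Klrb1c had 4, 8, 12 and 19 counts in all control libraries together, so their fold changes rest on few counts.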
